A study of Mus musculus with 8 samples.

Results

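The 4 genes described here lie on chromosome 14 of the mouse and had few or no reads in wild-type cells. They were chosen by the counts of these same 8 libraries, as genes with reads in the knockout and at most a handful in the wild type. They are 1700049E17Rik1, 1700049E17Rik2, Gm6526 and 2410012E07Rik, 4 of the 47434 genes in the deposited table. Because this contrast chose them, their difference between the groups is given as a description with no test. RNA selected for poly-A tails was sequenced from Hepa 1-6, an established line of mouse hepatoma cells, in 4 libraries with G9a knocked out and 4 wild-type libraries, and no other treatment is named. The labels give neither the number of knockout clones nor the cultures behind each library, so p-values measure only the spread between these libraries, which may be technical. Library totals lay between 58256100 and 75025236 counts.

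G9a, the product of Ehmt2, adds mono- and dimethyl marks to lysine 9 of histone H3, a modification found over genes and repeats that are kept silent. Genes that lie in tandem arrays arise by repeated duplication of a stretch of chromosome, and the copies often stay so alike that a short sequencing read fits several of them. A long intergenic RNA is a spliced transcript with no known coding sequence. The annotations used here give no function for any of the 4 genes. The RIKEN clone that gave the first pair its name came from a testis library, and that of 2410012E07Rik from embryonic stem cells.

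The label "repeated" held for 3 of the 4 genes. 1700049E17Rik2 (ENSMUSG00000090440) lies at chr14:41573211-41581305 on the plus strand of GRCm38, 1700049E17Rik1 (ENSMUSG00000079271) at chr14:41924949-41933041 and Gm6526 (ENSMUSG00000091698) at chr14:43747866-43755948, also on the plus strand. GENCODE calls all 3 protein-coding. RefSeq calls Gm6526 a pseudogene. The gap between the first pair was 344 kb, and 1.81 Mb separated 1700049E17Rik1 from Gm6526. The longest transcript of each had 5 exons and 594 coding bases. 2410012E07Rik (ENSMUSG00000099528), a long intergenic RNA of 4 exons at chr14:70852933-70873954 on the plus strand, lies 27.1 Mb beyond Gm6526. No other annotated gene was like it in sequence, by the limit of 85% identity over at least 50% of the shorter transcript.

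How far the copies can be told apart bears on every count that follows. The 1757-base transcript of 1700049E17Rik2 lies whole inside the 1761-base transcript of 1700049E17Rik1, which has 4 further bases at its 3′ end. Gm6526 was 93.5% identical to 1700049E17Rik2 over 1723 aligned bases, with 17 differences among the 594 coding bases and 93 in the 1103 aligned bases after them. The stretch of 120 coding bases that differed most between 1700049E17Rik2 and Gm6526 lets the copies be compared. It runs from base 135 to base 254 of the coding sequence, and capitals mark bases that differ from 1700049E17Rik2. Gm8104 is a further copy that is described later.
1700049E17Rik2: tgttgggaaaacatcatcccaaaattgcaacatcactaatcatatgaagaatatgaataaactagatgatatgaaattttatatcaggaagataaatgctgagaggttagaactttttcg
1700049E17Rik1: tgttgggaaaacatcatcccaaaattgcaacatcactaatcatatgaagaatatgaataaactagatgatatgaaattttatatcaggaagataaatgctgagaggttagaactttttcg
Gm6526: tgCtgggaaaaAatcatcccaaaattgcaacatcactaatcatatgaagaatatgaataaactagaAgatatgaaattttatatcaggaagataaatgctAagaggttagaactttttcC
Gm8104: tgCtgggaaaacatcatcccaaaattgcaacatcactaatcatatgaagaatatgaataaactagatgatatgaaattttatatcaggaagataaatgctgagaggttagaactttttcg

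The first pair did not differ at any base of this stretch, Gm6526 differed at 5 and Gm8104 at 1. Windows of 50 and of 100 bases were taken along each longest transcript and looked for in the transcripts of all other annotated genes. None of the 1708 windows of 50 bases of 1700049E17Rik2 was its own. At 100 bases, none of its 1658 windows was its own, against 4 of 1662 for 1700049E17Rik1. Windows found in that pair and in no other gene made up 18.7% of those of 1700049E17Rik2 at 50 bases and 49.6% at 100 bases. Gm6526 held 78.3% and 97% windows of its own at the 2 lengths, and 2410012E07Rik held 98.9% and 100%. Among annotated transcripts, a read of Gm6526 or 2410012E07Rik could therefore mostly be placed by its letters, and a read of the first pair mostly could not. The rest of the genome, with any copies that are not annotated, was not searched. No source used here says how reads that match several places were counted.

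The windows just before the starts of the first pair were also the same. RefSeq promoter windows (GRCm38.p6, 250 bases before a start and 50 after it) were at hand for 2 of the 4 genes, 1700049E17Rik1 and 1700049E17Rik2, and these were identical. The part before the start is printed beside that of Gm8126, a similar gene in the same stretch, to show what the copies share where transcription begins. It lies at chr14:41924699-41924948 for 1700049E17Rik1 and at chr14:41572961-41573210 for 1700049E17Rik2, and the Gm8126 stretch at chr14:43258399-43258620, all on the plus strand. Capitals mark the 9 of 222 bases at which Gm8126 differs.
1700049E17Rik1 and 1700049E17Rik2: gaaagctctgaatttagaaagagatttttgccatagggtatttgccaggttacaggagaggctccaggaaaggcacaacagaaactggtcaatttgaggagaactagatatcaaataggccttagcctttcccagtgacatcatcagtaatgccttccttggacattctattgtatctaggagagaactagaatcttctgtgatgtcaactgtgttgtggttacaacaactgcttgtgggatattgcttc
Gm8126: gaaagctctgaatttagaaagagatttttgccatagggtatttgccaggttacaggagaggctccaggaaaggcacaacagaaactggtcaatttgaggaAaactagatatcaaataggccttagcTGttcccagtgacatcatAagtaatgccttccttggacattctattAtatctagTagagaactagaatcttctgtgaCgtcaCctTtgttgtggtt

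The 300-base window of the first pair held 1 CpG, against a median of 7 over 32851 windows, and 14.1% of all windows held as few. Its content of G and C was 43%, against a median of 52.7%. Of the motifs searched on both strands, the E-box CACGTG (in 7.15% of all windows), the E2F motif TTTCGCGC (0.323%), the cAMP response element TGACGTCA (1.79%) and the TATA motif TATAAA (13.6%) were not in the window of the pair. The window of Gm8126 held TGACGTCA, at the place where the pair has 1 other letter, and the windows of Gm5799 and Gm8267 held it too. A match is a match of letters and says nothing of a factor that binds there. Windows of 6 similar genes aligned to that of the pair at 90% to 97.3% identity.

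2410012E07Rik is shown by 50 bases on each side of its first exon junction, the mark of its spliced RNA, with the second exon in capitals. These are bases 14 to 113 of its 1357-base transcript.
2410012E07Rik: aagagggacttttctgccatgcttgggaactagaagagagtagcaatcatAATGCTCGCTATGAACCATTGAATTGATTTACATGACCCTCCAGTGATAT

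1700049E17Rik2 held most of the reads of the repeated genes. It had 904, 659, 558 and 768 counts in the 4 knockout libraries, against 0, 4, 0 and 4 in the 4 wild-type libraries. These were 11.7, 9.51, 9.38 and 10.8 CPM (counts relative to library size after TMM normalization) in the knockout, against 0, 0.0605, 0 and 0.0635 CPM in the wild type. It was thus not at 0 in every wild-type library, and no wild-type library came near any knockout library. The mean was 10.3 ± 1.12 CPM in the knockout and 0.031 ± 0.0358 CPM in the wild type (SD, n = 4 each). Summed over libraries the ratio of levels was 357.4, with a 95% counting interval of 181.2 to 828.7, and the fitted log2 fold change was 8.31 ± 0.35 (SE, edgeR). In such bulk RNA, more cells with the transcript and more RNA per cell cannot be told apart.

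1700049E17Rik1, the twin in sequence, had 37, 16, 21 and 22 counts in the knockout libraries and 0 in each wild-type library. Its level was 0.343 ± 0.105 CPM in the knockout, at least 31.7-fold higher than the wild type, which was set to a floor of 3 counts over its 4 libraries. Of the counts of the pair, it took 3.93%, 2.37%, 3.63% and 2.78% in knockout libraries 1 to 4. The exact 95% binomial intervals of these shares ran from 1.36% at the lowest bound to 5.49% at the highest and overlapped one another. Given transcripts of the same letters, whether these few percent came from the second locus cannot be told apart from how reads were divided. Together the pair had 941, 675, 579 and 790 counts in the knockout libraries, against 0, 4, 0 and 4 in the wild type.

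Gm6526, which its letters set apart from the pair, had 179, 136, 181 and 132 counts in the knockout libraries and 0 in each wild-type library. The knockout level was 2.3 ± 0.538 CPM (SD, n = 4), at least 207.2-fold higher than the wild type at the same floor. 2410012E07Rik had 262, 184, 266 and 218 counts in the knockout libraries and likewise 0 in each wild-type library, which gave 3.4 ± 0.779 CPM in the knockout, at least 306.8-fold higher than the wild type at its floor. In both genes library 3 was the highest in CPM of the knockout, at 3.04 for Gm6526 and 4.47 for 2410012E07Rik, while in 1700049E17Rik2 it was the lowest. Counting intervals and floors cover counting error only, because these reads carry no molecular identifiers and may be copies of one another.

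**Figure D1:**
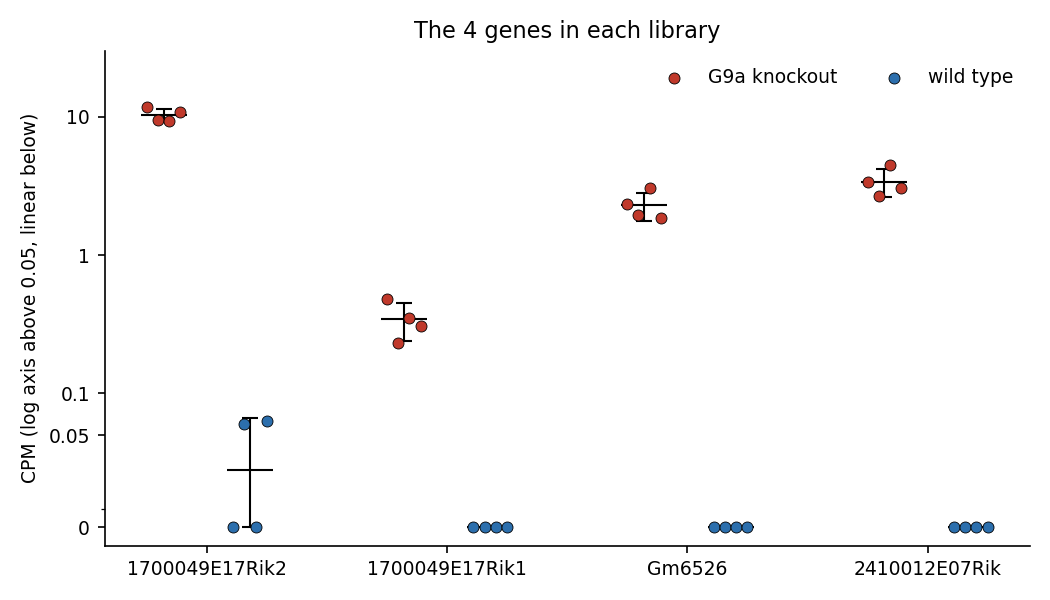
Level of each of the 4 genes in CPM (log axis above 0.05 CPM, linear below), 1 point per library, G9a knockout to the left of wild type, with a bar at the mean and whiskers of 1 SD. Knockout points lie at 9.38 to 11.7 CPM for 1700049E17Rik2, and all wild-type points lie at 0 except those of 1700049E17Rik2 in libraries 2 and 4.

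None of the 4 genes had groups that overlapped. Over all 15840 genes tested, 22.5% were higher in every knockout library than in every wild-type library, 43.9% had no overlap in either direction, and 47.2% passed the edgeR test in either direction. Since these 4 were chosen for that contrast, nothing is read from their count. By transcript length the knockout levels were 5.89 CPM per kb for 1700049E17Rik2, 2.5 for 2410012E07Rik, 1.33 for Gm6526 and 0.195 for 1700049E17Rik1. The spread between knockout libraries, as the coefficient of variation, was 10.8%, 22.9%, 23.4% and 30.5% in that order. Genes of a like level (within 1.5-fold) had median coefficients of 8.96%, 14.1%, 17.5% and 39.3%, so that 2410012E07Rik varied more between libraries than 85% of its 1012 peers.

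The deposited counts were given almost wholly to 1 transcript per gene. Of 1700049E17Rik2, the 1757-base transcript had all counts and a shorter annotated transcript had none in any library. Gm6526 gave 98.4% of its knockout counts to the 1723-base transcript. Its 591-base transcript had 0, 5, 0 and 5 counts in the knockout libraries and none in the wild type. The shorter transcripts lie within the span of the longer ones, and how reads that fit both were divided is not known. 1700049E17Rik1 and 2410012E07Rik have 1 annotated transcript each.

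Of the 4 genes, 3 could be ranked among genes that were off in the wild type. There were 3650 genes with at most 3 counts over the 4 wild-type libraries and any knockout read. Ordered by their mean knockout CPM, 2410012E07Rik was number 2 and Gm6526 number 3, and 1700049E17Rik1 was number 42. 1700049E17Rik2 had 8 wild-type counts and falls outside the limit. Gbp4, an interferon-induced GTPase, stood first, with 403, 386, 300 and 336 counts in the knockout libraries, against 3, 0, 0 and 0 in the wild type. The next after Gm6526 were Gm5694, Nxf3, Mapk4, Akr1c12, Gm20634, Gm26691 and Igfbp5. Of these, Gm20634 drew 265 of its 286 knockout counts from library 4, while each of the 4 genes described here had reads in every knockout library.

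**Figure D2:**
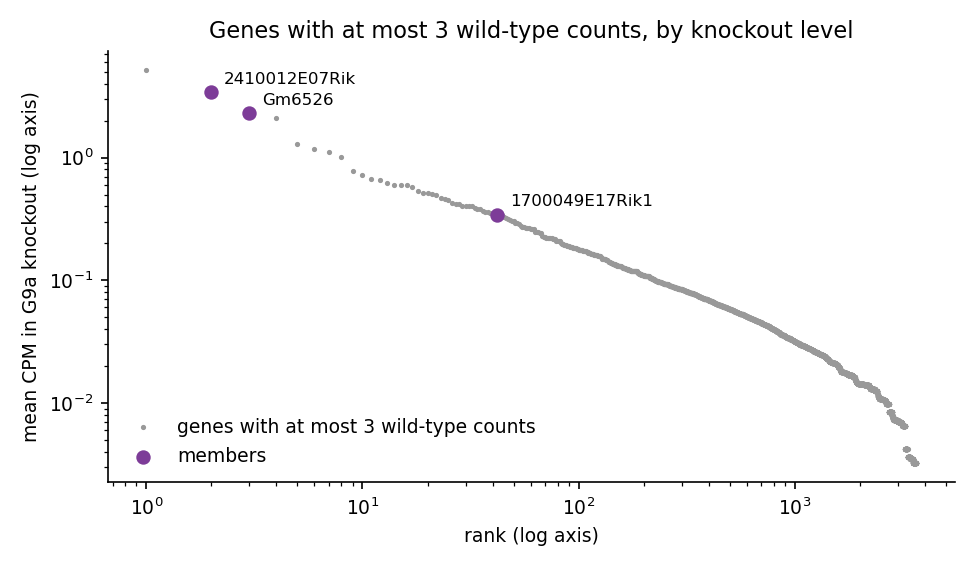
Mean CPM in the G9a knockout (log axis) of the 3650 genes with at most 3 counts over the wild-type libraries, by rank (log axis), with the 3 of the 4 genes that meet this limit in colour and named. 2410012E07Rik and Gm6526 stand at ranks 2 and 3 and 1700049E17Rik1 at rank 42.

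Genes that were off in one group and well read in the other were counted by chromosome. Of 25749 genes with a read in any library, 37 (0.144%) had at most 3 wild-type counts and at least 100 knockout counts, and 16 had the reverse. Chromosome 14 held 7 of the 37, or 0.823% of its 851 genes with a read, against at most 0.337% on any other chromosome. Of these 7, 4 lay in the stretch around the repeated genes. Gm6526 and 2410012E07Rik are among the 7 and were chosen for this very pattern. In a count added after seeing the data, without the 4 genes described here, chromosome 14 held 5 such genes, or 0.59% of its 847 other genes with a read. Gm8104, Gm8165 and Gm8094, similar to the repeated genes and described later, remain among these 5, so the count still holds part of the array. No test was made of the share of 0.59%. The tested genes of chromosome 14 had a median log2 fold change of -0.012, against 0.004 over all genes tested.

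Other copies in the stretch were likewise read mostly in the knockout. By the same limit of 85% identity, 38 further annotated genes were like the repeated 3, all on chromosome 14, and 31 of them were in the table. Of these, 11 had a read: 10 in knockout libraries alone, none in wild-type libraries alone, and 1, Gm5622, in both. Over all genes with a read, 10.2% had reads in the knockout alone and 5.64% in the wild type alone. Gm5622 lies far from the stretch, at chr14:51552790-51662953, and had 10, 6, 4 and 0 counts in the knockout, against 0, 0, 0 and 9 in the wild type.

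Gm8104, 97.6% identical to its closest member, had 55, 22, 29 and 10 counts in the knockout libraries. Gm8126 had 26, 25, 20 and 20 counts there and Gm7233 had 12, 17, 25 and 17. Each of the 3 was at 0 in all 4 wild-type libraries. In that order they were at least 38.3-fold, 30-fold and 23.4-fold higher in the knockout, with the wild type at the floor. Gm5799 (27, 14, 7 and 10 counts) and Gm9597 (0, 10, 3 and 16 counts) were also read in the knockout alone. The longest transcripts of Gm8104, Gm7233, Gm8126 and Gm5799 held 40%, 47.5%, 35.9% and 23.9% windows of 50 bases of their own. Reads of these genes may thus belong in part to other copies. Gm2832, Gm8065, Gm7991, Gm7152 and 4930503E14Rik had 3 to 8 counts, all in 1 knockout library each. Only Gm7233 and Gm8126 passed the filter on low counts, which Gm8104 did not with its 10 counts in library 4, and both rose (edgeR, Benjamini-Hochberg adjusted p = 0.000393 and 0.000111), where 23.6% of all genes tested rose. A gene at 0 in the wild type reaches the test only through its knockout reads, so nothing is read from these 2 calls.

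Summed, the repeated 3 and the genes like them gave 16.4, 13.2, 14.3 and 13.9 CPM in the knockout libraries, against 0, 0.0605, 0 and 0.206 CPM in the wild type. The repeated 3 held 89.9% of the 4020 knockout counts of this sum.

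**Figure D3:**
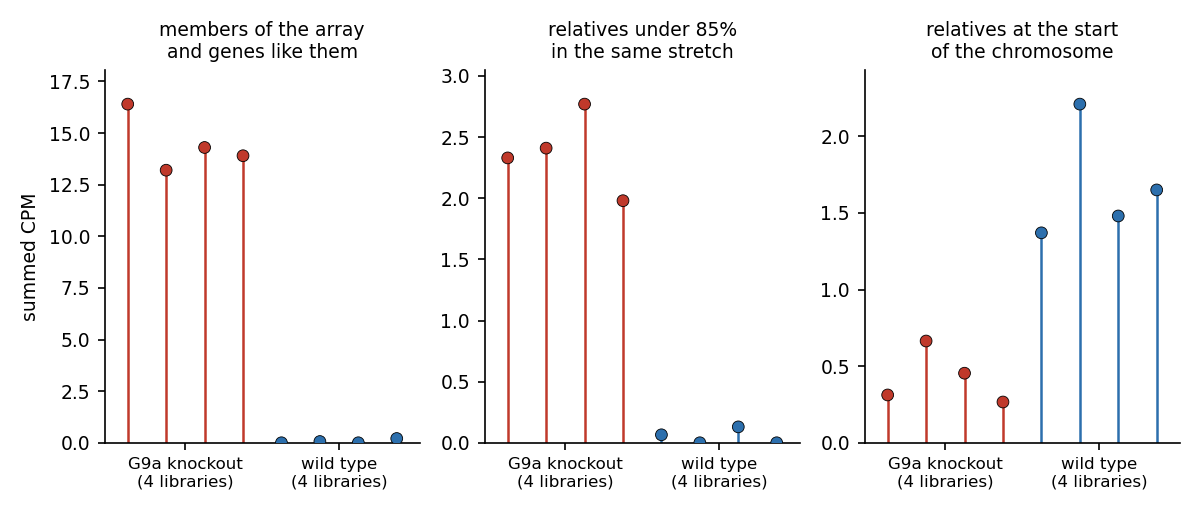
Summed CPM in each library, the 4 G9a knockout libraries to the left of the 4 wild-type libraries, for the repeated genes with the genes like them (left), relatives under 85% identity in the same stretch (middle) and relatives at the start of chromosome 14 (right), on linear axes that start at 0. The first 2 sums are at least 1.98 CPM in every knockout library and at most 0.206 CPM in every wild-type library, and in the right panel every knockout library lies below every wild-type library.

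More distant relatives are described by where they lie, in the stretch itself or at the start of the chromosome. This grouping was made after the values were seen, and a few relatives lie in neither place. Of those, Gm17079 had 28, 19, 0 and 7 counts in the knockout libraries and none in the wild type. Gm17175 had 7 counts in wild-type library 4 and none elsewhere. Of 150 annotated genes with a weaker likeness to the repeated 3, 37 lie within 1 Mb of them, at 63.3% to 67.3% identity and 29 on the minus strand. Among these 37, 17 had a read: 16 in the knockout alone, none in the wild type alone and 1 in both. Of all genes with a read, 10.2% were read in the knockout alone and 5.64% in the wild type alone. Gm17026, Gm21977, Gm8220 and Gm8232 had 1 count each, all in knockout library 3. Copies may share reads, so the 17 are not separate detections and nothing is read from how many fell on each side. The sum over the 37 was 2.33, 2.41, 2.77 and 1.98 CPM in the knockout libraries, against 0.0652, 0, 0.13 and 0 CPM in the wild type.

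Gm8127 led this branch, with 83, 52, 66 and 75 counts in the knockout libraries, against 4, 0, 9 and 0 in the wild type. It rose by 4.28 ± 0.69 on the log2 scale (SE, edgeR, adjusted p = 0.000201), or by 5.44 without wild-type library 3, which held most of its wild-type counts. Its wild-type counts, at most 9, lay below the filter on low counts. Gm8127 thus reached the test only through its knockout reads, and nothing is read from its call. Gm8165 had 39, 38, 38 and 25 counts in the knockout libraries, and Gm8094 had 37, 33, 24 and 33. Both were at 0 in every wild-type library, so they too reached the test only through their knockout reads, and their calls are not used as support. With the wild type at the floor, Gm8165 was at least 46.2-fold and Gm8094 at least 41.9-fold higher in the knockout. The longest transcripts of Gm8127, Gm8165 and Gm8094 held 8.78%, 24.3% and 3.53% windows of 50 bases of their own. Their reads may thus belong in part to other copies.

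Relatives at the start of the chromosome were, in sum, lower in the knockout. The 107 of them between 3030002 and 19628632 of chromosome 14 were 73% to 79.8% identical to their closest member, nearer in letters than the Gm8127 branch. Their sum was 0.312, 0.664, 0.454 and 0.266 CPM in the knockout libraries, against 1.37, 2.21, 1.48 and 1.65 CPM in the wild type. Each knockout library lay below each wild-type library. Of the 19 with a read, none was read in the knockout alone, 14 in the wild type alone and 5 in both. The shares over all genes with a read were 10.2% in the knockout alone and 5.64% in the wild type alone. The 14 had 1 to 8 counts each, summed over the wild-type libraries. Gm10340, Gm2956, Gm3005, Gm3239 and Gm3252 had 1 count each, all in wild-type library 2. Copies may share reads, so the 19 are not separate detections and nothing is read from how many fell on each side. Gm2237, at chr14:19563800-19585135, held most of the reads of these 19 genes. It had 17, 46, 27 and 19 counts in the knockout, against 70, 113, 76 and 81 in the wild type. It fell by 1.71 ± 0.36 on the log2 scale (SE, edgeR, adjusted p = 0.00143). Its longest transcript held 17% windows of 50 bases of its own, so its reads may belong in part to other copies nearby.

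The stretch as a whole held genes of every kind, and not all of them were off in the wild type. Within 1 Mb of the repeated 3, between 40747227 and 44767598 of chromosome 14, 198 further genes are annotated and 157 were in the table. Of these, 46 had a read: 38 in the knockout alone, 1 in the wild type alone and 7 in both. Among all genes with a read, the shares were 10.2% in the knockout alone and 5.64% in the wild type alone. Several of the 38 had a single count. Those of Gm2878, Gm3077, Gm3025 and Gm3111 were all in knockout library 4. Those of Gm17026, Gm21977, Gm8220 and Gm8232 were all in knockout library 3. Copies may share reads, so the 46 are not separate detections and nothing is read from how many fell on each side. The knockout libraries each read 21, 32, 32 and 21 of the 46 genes, against 7, 6, 8 and 6 in the wild-type libraries. Over all genes the knockout libraries read 20474 to 20961, against 19489 to 19729 in the wild type.

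Some genes in the midst of the copies had reads in both groups. Gm7324, which ends before Gm6526 starts, was at 30.3 ± 2.19 CPM in the knockout and 28.2 ± 1.36 CPM in the wild type (SD, n = 4 each). Gm8113, on the other side of Gm6526, was at 1.33 ± 0.278 CPM in the knockout and 1.35 ± 0.478 CPM in the wild type. The pseudogene Cdv3-ps was at 0.102 ± 0.0487 CPM in the knockout and 0.191 ± 0.0694 CPM in the wild type. None of the 3 passed the test (edgeR, adjusted p = 0.22, 0.957 and 0.221). They were picked after their values were seen.

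At the edge of the stretch lie genes unlike the copies, with high levels in both groups. Fam213a, which encodes a redox protein, was at 72.4 ± 3.05 CPM in the knockout and 34.7 ± 2.93 CPM in the wild type, and rose by 1.06 ± 0.06 on the log2 scale (SE, edgeR, adjusted p = 2.78e-08). Tspan14, a tetraspanin that partners the protease ADAM10, was at 40.9 ± 1.45 CPM in the knockout and 63 ± 0.667 CPM in the wild type, and fell by 0.62 ± 0.05 (adjusted p = 2.16e-07). Of all 11 genes tested near the repeated 3, 7 rose, 1 fell and 3 did not pass, where 23.6% of all genes tested rose and 23.6% fell. Of the 7, 4 (Gm7233, Gm8126, Gm8165 and Gm8094) were at 0 in the wild type and had to differ to be tested, so nothing is read from this count. The other 3 were Fam213a and, reaching the test only through their knockout reads, Gm8127 and Sh2d4b. Sh2d4b had 4, 44, 10 and 15 counts in the wild-type libraries, and nothing is read from its call. Sh2d4b (log2 fold change 1.83 ± 0.57, edgeR adjusted p = 0.0174) did not pass without knockout library 2 (adjusted p = 0.072), and it was at 2.72 without wild-type library 2.

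**Figure D4:**
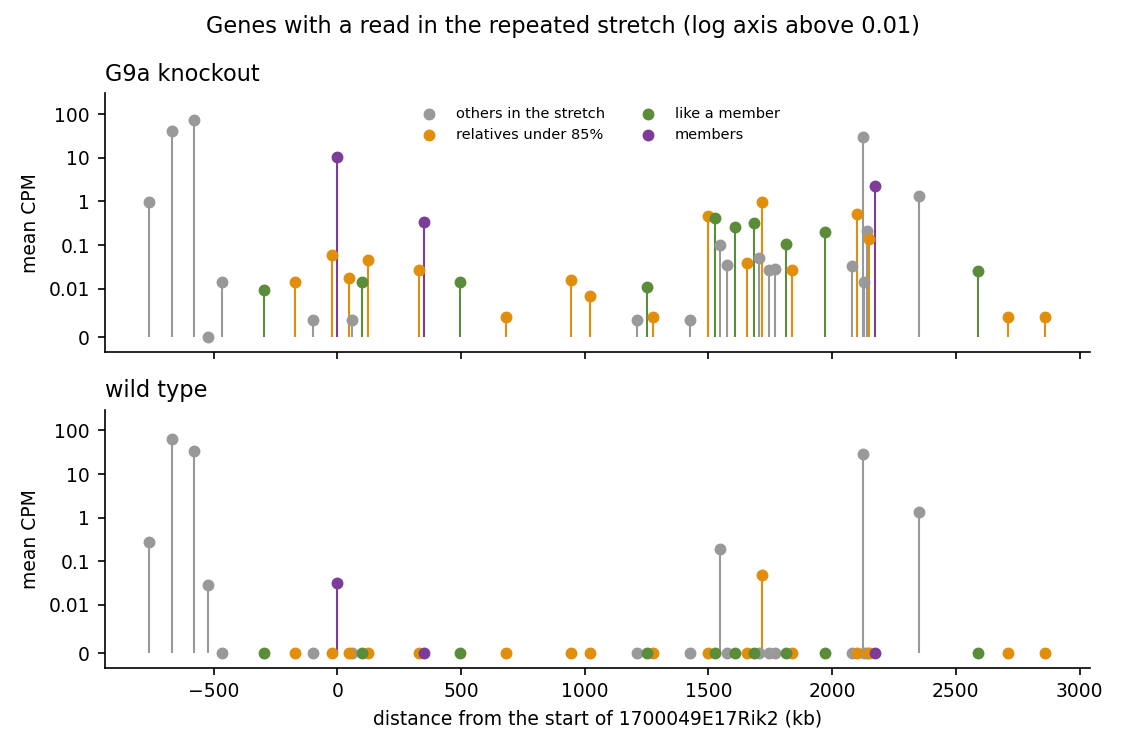
Mean CPM over 4 libraries (log axis above 0.01 CPM, linear below) of each gene with a read within 1 Mb of the repeated genes, by distance of its start from the start of 1700049E17Rik2 in kb, for the G9a knockout (upper) and the wild type (lower), coloured by likeness to the repeated genes. The copies and relatives shown stand above 0 in the knockout, some by 1 count, and in the wild type only 1700049E17Rik2 and Gm8127 among them do. Copies and relatives with no read in any library are not shown.

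The surroundings of 2410012E07Rik were of another kind, with genes mostly read in both groups. Of 41 genes annotated within 1 Mb, 32 were in the table, 28 had a read, 26 of these in both groups, and 23 were tested. There 10 rose, 5 fell and 8 did not pass, with a median log2 fold change of 0.30. Over all genes tested, 23.6% rose and 23.6% fell. The count of falls was 2 with library totals alone, and as low as 2 without any 1 of knockout libraries 1 and 4 and wild-type library 4.

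Gfra2, which starts 16.2 kb after the end of 2410012E07Rik and encodes the receptor of neurturin, was the nearest tested gene. It had 192, 211, 112 and 143 counts in the knockout libraries, against 19, 28, 40 and 37 in the wild type. Its mean was 2.36 ± 0.53 CPM in the knockout and 0.475 ± 0.133 CPM in the wild type, and it rose by 2.30 ± 0.27 on the log2 scale (SE, edgeR, adjusted p = 1.03e-05). On the other side, Dok2, an adaptor of tyrosine kinase signalling 74.4 kb away, was at 0.622 CPM in the knockout and 0.665 CPM in the wild type and did not pass (adjusted p = 0.835). Xpo7, a nuclear transport receptor 86.3 kb away, fell by 0.15 ± 0.06 (adjusted p = 0.0398). That call was lost without any 1 of knockout libraries 1, 3 and 4 or wild-type libraries 2, 3 and 4 (adjusted p up to 0.141) and with library totals alone (adjusted p = 0.318). The difference in response between the genes on either side of 2410012E07Rik was not tested.

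Farther off, Ppp3cc, a catalytic subunit of calcineurin, rose by 1.25 ± 0.14 (adjusted p = 1.04e-05), and Pdlim2 by 0.74 ± 0.07 (adjusted p = 8.99e-07). Egr3, an early-response transcription factor, fell by 0.66 ± 0.09 (adjusted p = 2.7e-05). Fgf17, a growth factor gene 210.7 kb away that was noticed after the values were seen, had 39, 37, 40 and 48 counts in the knockout, against 0, 0, 3 and 0 in the wild type. It rose by 5.49 ± 0.76 (adjusted p = 5.27e-05), or by 8.32 without wild-type library 3, the only one with its reads. That fit leaves the wild type at 0, so 8.32 is no measure of size. Fgf17 reached the test only through its knockout reads, so nothing is read from its call, which is counted among the rises above. Lgi3 and Npm2, also noticed after the values were seen, rose by 1.57 ± 0.36 and 1.31 ± 0.32 (adjusted p = 0.00268 and 0.00381). Lgi3, with 20, 10, 28 and 18 wild-type counts, also reached the test only through its knockout reads, so nothing is read from its call.

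**Figure D5:**
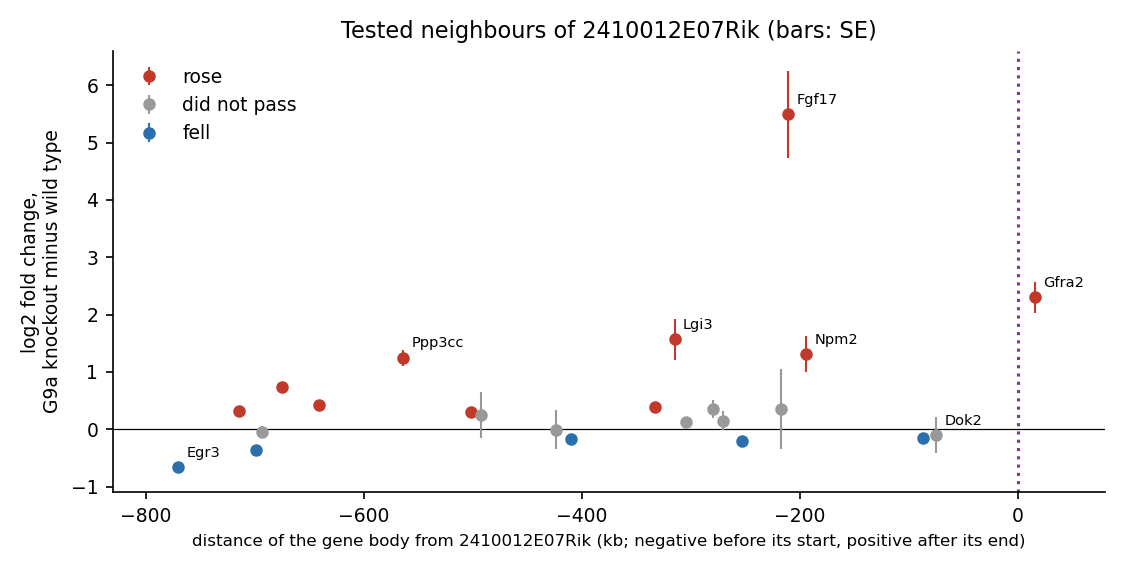
Log2 fold change, G9a knockout minus wild type, with SE bars, of the 23 tested genes within 1 Mb of 2410012E07Rik, by the distance of the gene body in kb (negative before its start, positive after its end), coloured by whether a gene rose, fell or did not pass. Gfra2 stands at 2.30 next to the dotted line that marks 2410012E07Rik, and Dok2 on its other side stands near 0.

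The targeted gene was checked in every library. Ehmt2 had 8976, 8083, 7122 and 8479 counts in the knockout libraries, against 21175, 20294, 20535 and 19314 in the wild type, and fell by 1.41 ± 0.05 on the log2 scale (SE, edgeR, adjusted p = 3.82e-10). Counts per exon were not used here, so the lesion itself was not seen. Of 30 listed factors of H3K9 methylation and silencing, none rose, 17 fell and 13 did not pass, with a median log2 fold change of -0.21 against 0.004 over all genes. Over all genes tested, 23.6% rose and 23.6% fell, and no test set the list apart from them. Besides Ehmt2 these were led by Morc2a, which acts with the HUSH silencing complex (-0.86 ± 0.05), Morc3 (-1.47 ± 0.08) and Mga (-0.93 ± 0.07). Ehmt1, the partner of G9a, was at 70.7 ± 3.47 CPM in the knockout and 83 ± 2.13 CPM in the wild type and fell (adjusted p = 0.00157). The scaffold gene Dlg5 and its relatives were listed as possible kin of repeated chromosome 14 genes. No nucleotide alignment of transcripts of the 4 genes to those of Dlg5 was found. Proteins were not compared, so a more distant kinship was not looked for. Of 21 tested, 5 rose (among them Dlg2, by 4.51 ± 0.34), 3 fell and 13 did not pass, where 23.6% of all genes tested rose and 23.6% fell. Dlg2 had few wild-type counts and reached the test only through its knockout reads.

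Markers of other cell types were read beside these results. Of 14 male germ cell markers none reached the test. Their sum was 0.273 to 0.403 CPM in the knockout libraries, against 0.0652 to 0.539 CPM in the wild type, with Stra8, Tex101, Tnp1, Hormad1 and Mael at 0 in all 8. Of 14 markers of embryonic stem cells and their 2-cell-like state, 3 were tested and 1, Esrrb, rose. Esrrb had 34, 10, 24 and 18 wild-type counts and reached the test only through its knockout reads. The list summed to 44.5 to 48.2 CPM in the knockout, against 43.9 to 52.4 CPM in the wild type, nearly all of it Sox2, and Nanog, Zscan4c, Zscan4d, Zscan4f, Tcstv1 and Tcstv3 were at 0. Of the 14 hepatocyte and hepatoma markers that the labelled tissue calls for, Alb, Ttr, Serpina1a, Hnf4a and Fgb were at 0 in all 8 libraries. Of the 4 that were tested, 2 rose, none fell and 2 did not pass, with a median log2 fold change of 0.05. The fetal liver gene Afp was at 133.2 ± 11.9 CPM in the knockout and 5.77 ± 0.566 CPM in the wild type, and it rose (log2 fold change 4.53 ± 0.09, adjusted p = 2.12e-12). The keratin gene Krt8 rose by 0.15 ± 0.05 (adjusted p = 0.0149), a call that was lost without knockout library 4 (adjusted p = 0.0589). Krt18 (-0.04 ± 0.05) and Apoa2 (-0.17 ± 0.33) did not pass (adjusted p = 0.486 and 0.721).

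Of 8 fibroblast and stellate cell markers, 6 were tested and 4 rose (1 of these, Col1a1, not in most fits that left out a library), and their sum was 430.6 to 463.1 CPM in the knockout, against 109.2 to 119.5 CPM in the wild type. Nearly all of it was Col3a1, while Lum was at 0. Of 8 neuronal markers, 2 rose, 1 fell and 3 did not pass among 6 tested (sum 23.2 to 25.6 CPM in the knockout, 17 to 20.6 CPM in the wild type). Of 8 macrophage and leukocyte markers, 1 rose, 1 fell and 3 did not pass among 5 tested (sum 15.4 to 19.4 CPM in the knockout, 18.2 to 21.1 CPM in the wild type). Over all genes tested, 23.6% rose and 23.6% fell, and with so few genes tested nothing is read from the counts of these lists. The part of any of these marker lists in the levels of the 4 genes was not tested.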

How the data were processed

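Poly-A RNA of 8 libraries was analysed, 4 of G9a knockout and 4 of wild-type Hepa 1-6 cells. The authors deposited whole-number counts per transcript, not normalized, as the values show. FastQC, Trimmomatic, HISAT2 and the build GRCm38.p6 are named in the submitters' processing notes. How reads were counted, with or without strand and on which annotation, is not given in the sources used here. Of 115220 transcripts, 114332 (99.23%) matched GENCODE mouse release 21 and were summed to 47434 genes. The 888 others held 0.148% to 0.17% of a library's counts and were left out. The design allowed for counts per gene or per transcript.

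Groups were compared with the quasi-likelihood test of edgeR 4.0.16 in R 4.3.3 (TMM, filterByExpr, genotype alone, two-sided, Benjamini-Hochberg over 15840 genes). "Rose" and "fell" mean an adjusted p under 0.05, and all adjusted p-values are from this test. A library's floor of 3 counts is 0.04 to 0.0515 CPM. Similar genes were found by blastn of BLAST 2.17.0+ (alignments of at least 100 bases) among GENCODE transcripts. The code was tested on simulated data.

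The members and the gene lists were chosen with earlier results of these data known. Genes named were the 4 members, Ehmt2, Ehmt1, up to 8 similar genes by level, up to 6 neighbours and up to 4 genes per list by p, and the 10 genes off in the wild type that were highest in the knockout. Not all are described, and other genes are marked as noticed later. Alternatives were DESeq2 1.42.0, limma-voom 3.58.1, library totals, 2 other filters, the replicate number as a block, leaving out each library, single transcripts, summed copies and other limits of likeness and distance.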

Additional observations from a re-analysis of the deposited data

Results flagged for a closer look

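Among 108 pairs of a gene and a group of 4 libraries, 4 had a single library far from the others, where chance gives about 1 in 20. Gm8127, a relative of the repeated genes, was at 0.751 CPM in knockout library 2, below the others of that group at 1.05 to 1.11 CPM. Morc2a was at 127 CPM in the same library, above the other knockout libraries at 114.6 to 116.7 CPM. Usp17lc, also in that library, was at 0.751 CPM, above the others at 0.37 to 0.429 CPM. The pseudogene Cdv3-ps was at 0.294 CPM in wild-type library 1, above the other wild-type libraries at 0.143 to 0.166 CPM. The 4 genes described here had no such library.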

How the results depend on the processing

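The levels of the 4 genes moved by less than 1 SD under every alternative run except the summing of copies, by construction, where 1700049E17Rik2, 1700049E17Rik1 and Gm6526 become 1 feature of 14.5 CPM in the knockout. Leaving out 1 library at a time gave 9.88 to 10.7 CPM for 1700049E17Rik2, 0.297 to 0.381 for 1700049E17Rik1, 2.05 to 2.44 for Gm6526 and 3.04 to 3.64 for 2410012E07Rik. Their fitted log2 fold changes, which are no bounds, ranged from 7.74 to 8.87, 5.47 to 7.74, 7.74 to 10.34 and 8.74 to 10.93 in that order. The value 7.74, shared by 1700049E17Rik2, 1700049E17Rik1 and Gm6526, is that of the feature of summed copies and not of any single gene. Of single transcripts, 2376 rose and 1907 fell. Leaving out 1 library, 3462 to 3866 genes rose and 3325 to 3793 fell. Of genes like the repeated 3, 5 rose when every gene with a read was tested and 0 with a mean of at least 1 CPM, fewer of them then being tested, and 2 to 3 rose with 1 library left out. Of the remaining genes near them, 1 rose with a mean of at least 1 CPM, 1 rose and 0 fell within 250 kb, and 4 to 6 rose and 1 fell with 1 library left out. Near 2410012E07Rik, 3 genes rose and 1 fell within 250 kb, 2 fell with library totals alone, 3 with every gene with a read, 3 with a mean of at least 1 CPM and 3 with the replicate block, and 10 to 13 rose and 2 to 4 fell with 1 library left out; the cause was not tested. Signs turned for genes that did not pass in any case: Apoa2 (-0.34 to 0.12 without 1 library, and 0.01 without knockout library 3), Dok2 (-0.23 to 0.09 without 1 library), Gm8113 (-0.21 to 0.15 without 1 library, 0.06 with library totals alone and 0.03 with the replicate block), Krt18 (0.04) and Sox2 (0.0), both with library totals alone. Replicate numbers did not pair the libraries (correlations of deviations -0.172, 0.083, 0.244 and -0.076), and the replicate block called 3643 genes higher and 3612 lower. Depth limits the members' wild-type levels to the floors given.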
